A study of Drosophila melanogaster with 6 samples.

Results

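Muscle structural genes encode the thick and thin filaments of the sarcomere and the giant elastic proteins that hold the filaments in register. A total of 10 such genes of Drosophila melanogaster were chosen by name, with earlier results of these data known: Mhc, Mlc1, Mlc2, Act57B, Act87E, Act88F, wupA, up, bt and sls. Each matched 1 of the 15904 loci in both deposited tables. RNA came from eye discs, the larval epithelium that forms the adult eye, of wandering larvae late in the third instar. The control was w1118; sev-GAL4/UAS-GFP. The group labelled RNAi also carried hsromegaRNAi, a transgene aimed at Hsromega, a gene for long non-coding RNAs. The group labelled overexpression also carried EP3037, a GAL4-responsive insertion meant to overexpress that gene. All 3 groups therefore shared w1118, the sev-GAL4 driver and UAS-GFP, per the genotype labels. The driver is active in a subset of developing retinal cells, and nothing in the labels places it in muscle.

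Each group held 2 libraries of 30 pairs of discs, and the authors deposited 1 pooled FPKM value per group. FPKM corrects fragment counts for transcript length and for the number of fragments mapped, so levels of different genes can be compared. No value per library, and so no standard deviation, was held in these tables, and the depth is unknown. The labels do not say that replicate libraries were grown apart, so the spread behind the authors' p-values may be technical. Hsromega itself had a level of 202 in control discs, 204 in RNAi-labelled discs and 376 in overexpression-labelled discs, as FPKM, and was called in neither comparison, so the target does not check the labels. The 8 eye disc markers listed (ey, eya, so, dac, gl, ato, elav and sev) were all detected, at a summed FPKM of 247, 121 and 98.8 in the control, RNAi-labelled and overexpression-labelled discs.

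In striated muscle, myosin heads of the thick filament pull on actin filaments when calcium binds the troponin complex and moves tropomyosin aside. Flies build different muscles from related genes or splice forms: larval body wall muscle and adult flight muscle use different actin and troponin C genes, while a common Mhc gene serves both by alternative splicing. The eye disc is an epithelium that later holds neurons and is not a contractile tissue. The eye-antennal disc lies close to the larval mouthparts and their muscles. In bulk RNA such as this, fewer cells of a type and less RNA per cell cannot be told apart.

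Most of the 10 genes were abundant in the control discs. Act57B, a muscle actin of the larva, reached FPKM 902, the 160th highest of the 15904 loci. The essential myosin light chain Mlc1 followed at 303 and the regulatory light chain Mlc2 at 276. The troponin I gene wupA was at 202, the muscle myosin heavy chain Mhc at 191 and the troponin T gene up at 147. The projectin gene bt stood at 63.7, the larval muscle actin Act87E at 52.1 and the titin-like gene sls at 38.8. The flight muscle actin Act88F was last, at 1.59. With no spread between libraries, no 2 neighbours in this order could be tested against each other.

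**Figure D1:**
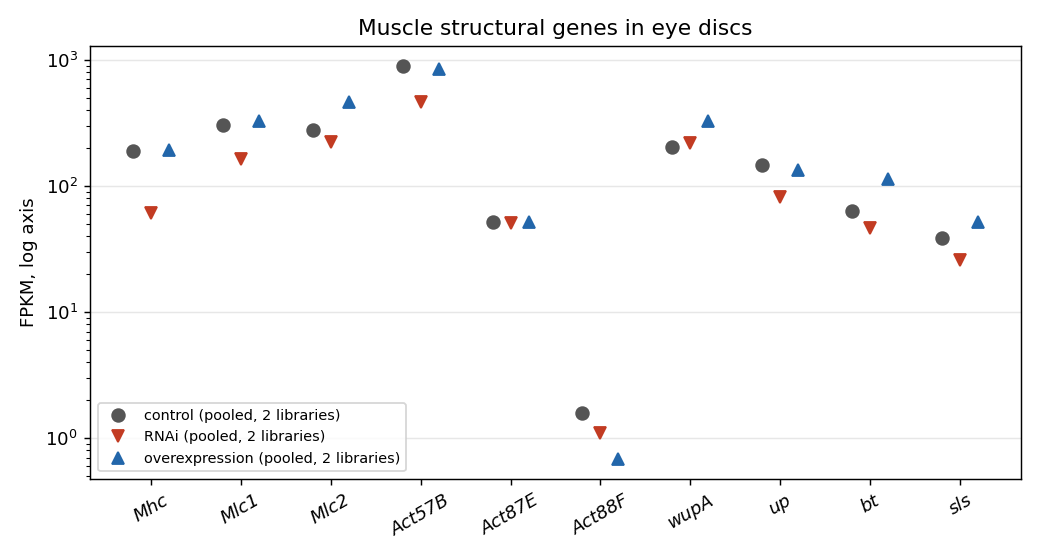
FPKM (log axis) of the 10 muscle structural genes, 1 pooled value of 2 libraries for the control (circles), the RNAi-labelled discs (downward triangles) and the overexpression-labelled discs (upward triangles). Act57B sits highest and Act88F lowest in all 3 groups, and 9 of the 10 RNAi-labelled values lie below the control.

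On the dm6 assembly, Mhc lies on chromosome 2L from 16766566 to 16788766 on the plus strand and has 21 annotated transcripts. Mlc1 (chromosome 3R, 27657078 to 27660177) and Mlc2 (chromosome 3R, 30171438 to 30174551) lie on the minus strand. Act87E (chromosome 3R, 13425983 to 13428375) and Act88F (chromosome 3R, 15439969 to 15442177) lie on the plus strand, and Act57B lies on 2R. The troponin genes wupA (chromosome X, 18105568 to 18116922, with 13 transcripts) and up (chromosome X, 13593474 to 13602578, with 18 transcripts) lie on the minus strand. The gene bt occupies 724400 to 776474 of chromosome 4 on the plus strand and sls 2039681 to 2115611 of chromosome 3L on the minus strand. Their longest annotated transcripts, at 27666 nt for bt and 56489 nt for sls, are far longer than that of Mhc at 7341 nt or those of the other 7 genes, which lie between 1347 and 2286 nt. The deposited locus of Act57B also holds a small nucleolar RNA gene nested within it, and the value cannot be divided between them. Act87E and sls overlap antisense RNA genes, CR45591 and CR42860, which stood at 0.387 and 0.538 in the control; the sources used here do not give how strand was treated in counting, so these values may share fragments.

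None of the 10 genes passed the authors' test in either comparison. In the authors' deposited table for RNAi, 0 of 10 members had a q-value (the p-value adjusted for multiple tests) of 0.05 or less, against 0.822% of all 11314 tested loci, and in that for overexpression 0 of 10, against 1.2% of 11372. A share of 0 among 10 genes is what so low a background would usually give. At an unadjusted p of 0.05 or less, the deposited Cuffdiff tables hold 1 member for RNAi, Mhc, against 4.5% of all loci, and 0 for overexpression, against 6.16%. With Benjamini-Hochberg recomputed from the deposited p-values, 0 members passed in either comparison, against 0.124% of loci for RNAi and 0% for overexpression. With p taken from the deposited test statistic, 0 members passed again, against 0.141% and 0.0967%. The errors are wide: the SE implied by the authors' deposited table, taken as the log2 fold over the test statistic, ran from 0.75 to 1.13 for RNAi and from 0.77 to 1.22 for overexpression, so changes of 2 or 3 fold in single genes were mostly not detectable.

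The thick filament genes had lower values under RNAi than in the control, by unequal amounts. Mhc had an FPKM of 191 in control discs, against 60.6 with the RNAi label and 194 with the overexpression label. That is 3.14-fold lower in the RNAi-labelled discs than in the control, and nearly level with it in the overexpression-labelled discs. The log2 fold was -1.65 with an implied SE of 0.88 for RNAi (p = 0.0118, q = 0.110) and 0.029 with an implied SE of 0.94 for overexpression (q = 0.995), in the authors' deposited table. The 95% interval from the implied SE ran from -3.37 to 0.069 for RNAi and from -1.81 to 1.87 for overexpression. For RNAi it holds 0 although the Cuffdiff p was 0.0118, since the implied SE is larger than the error that this p rests on.

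Mlc1, whose product clasps the lever arm of the myosin head, was at 303, 163 and 325 in the control, RNAi-labelled and overexpression-labelled discs. Its RNAi-labelled value was thus the lowest, 1.85-fold below the control, at q = 0.511 in the authors' deposited table. Mlc2, the light chain that is phosphorylated to tune contraction, was at 276, 222 and 464, with its highest value in the overexpression-labelled discs at 1.68 times the control (q = 0.677 in the authors' deposited table). The ratio of Mlc1 to Mhc, in FPKM, was 1.59 in the control, 2.69 in the RNAi-labelled discs and 1.67 in the overexpression-labelled discs. The ratio of Mlc2 to Mhc was 1.45, 3.67 and 2.39. Neither ratio has a test here, and both depend on transcript length, since Mhc is the longer gene. With the running median of all loci over transcript length subtracted, the log2 fold for RNAi was -0.74 for Mhc, -0.96 for Mlc1 and -0.28 for Mlc2, so that Mhc was no longer the lower when set against Mlc1.

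The thin filament genes had unequal folds, and whether they share a common shift was not tested. Their implied SEs for RNAi were wide, from 0.75 for Act87E to 1.13 for Act88F. Act57B was at 902, 462 and 845 in the control, RNAi-labelled and overexpression-labelled discs. It was 1.95-fold lower in the RNAi-labelled discs (log2 fold -0.96, implied SE 0.95, q = 0.510 in the authors' deposited table) and 0.937 times the control in the overexpression-labelled discs. Act87E hardly differed between the groups, at 52.1, 50.4 and 51.4. Act88F was near the lower end of detection in all groups, at 1.59, 1.09 and 0.682, and passed FPKM of 1 only in the control and the RNAi-labelled discs. The ratio of Act57B to Act87E was 17.3 in the control, 9.17 in the RNAi-labelled discs and 16.4 in the overexpression-labelled discs. The actin genes are near-identical copies in their coding parts, so how fragments were divided among them is uncertain.

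The genes for troponin I and troponin T, which work as partners in the same complex, had unequal folds, and this difference was not tested. The gene wupA was at 202, 220 and 329 in the control, RNAi-labelled and overexpression-labelled discs, and was the only member not lower in the RNAi-labelled discs, at 1.09 times the control. The gene up was at 147, 81.7 and 134, 1.79-fold lower in the RNAi-labelled discs (q = 0.562 in the authors' deposited table). The ratio of wupA to up was 1.38 in the control, 2.70 in the RNAi-labelled discs and 2.45 in the overexpression-labelled discs, without a test. The q-values of wupA were 0.994 for RNAi and 0.715 for overexpression in the authors' deposited table. The implied SE for RNAi was 0.87 for wupA and 0.83 for up. With the length trend subtracted, the log2 fold of wupA for RNAi was -0.013.

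The genes for the giant proteins of the elastic filaments had their highest RNA values in the overexpression-labelled discs, though neither passed the test. The projectin gene bt, which encodes a kinase with immunoglobulin and fibronectin domains, was at 63.7, 46.2 and 113. The gene sls, whose products include kettin and anchor thick filaments at the Z-disc, was at 38.8, 25.7 and 52.2. Relative to the control, bt was at 0.725 times in the RNAi-labelled and 1.77 times in the overexpression-labelled discs, and sls at 0.662 and 1.35 times. The q-values were 0.897 and 0.773 for bt and 0.833 and 0.943 for sls in the authors' deposited table.

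**Figure D2:**
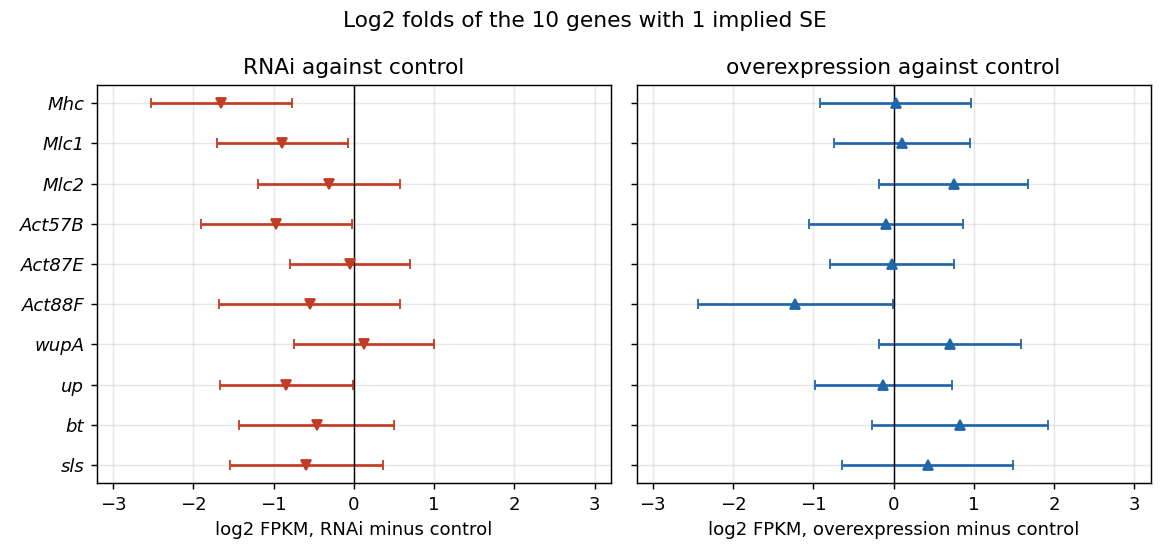
Log2 fold of FPKM, treated minus control, for the 10 genes in the RNAi comparison (left) and the overexpression comparison (right), with bars of 1 implied SE. For RNAi, 9 of 10 points lie below 0 and 4 lie farther from it than their bar; for overexpression, 6 lie above 0 and only Act88F is farther from it than its bar.

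As a list, the 10 genes had a median below the control in the RNAi-labelled discs, while the median for the overexpression-labelled discs depended on which members were counted. On the log2(FPKM + 0.1) scale, which understates the change of low genes, the median fold was -0.55 for RNAi, with 9 of 10 lower, against -0.037 over the 10152 loci that reached FPKM of 1 in any group, of which 52.7% were lower. For overexpression the median was 0.066, with 6 of 10 higher, against 0.033 over all those loci. It was 0.43 without the 3 actin genes, with 6 of 7 higher, and 0.18 with the length trend subtracted, with 5 of 10 higher. The median for RNAi was -0.44 with that trend subtracted, with 2 of 10 higher. Both comparisons share the control libraries, so their values are not independent. Set directly against each other, the overexpression-labelled discs were above the RNAi-labelled discs in 9 of 10 members, Act88F being the exception, with a median log2 difference of 0.93, against 0.032 over all loci and 54.1% of loci above. No deposited test compares these groups. The largest of these ratios were 3.21 for Mhc, 2.45 for bt, 2.09 for Mlc2 and 2.03 for sls. The summed FPKM of the 10 genes was 2176 in the control, 1334 in the RNAi-labelled discs and 2508 in the overexpression-labelled discs.

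Transcript length bears on these values, since the folds of all loci followed it. Longer transcripts had lower folds in both comparisons, and the running median at the length of bt was -1.10 for RNAi and -1.26 for overexpression. Against that trend, bt stood 0.64 above for RNAi and 2.09 above for overexpression, and sls 0.52 and 1.72 above, on the log2 scale. Mhc stood 0.74 below the trend for RNAi (a length-adjusted log2 fold of -0.74) and 1.14 above it for overexpression. For the 7 shorter genes the trend lay between -0.029 and 0.26. None of the 10 passed after this subtraction, which called 0.636% of tested loci for RNAi and 0.572% for overexpression. The p rescaled to the new fold was 0.0156 for bt and 0.0272 for sls in the overexpression comparison, above the largest p of 0.00395 that the authors called.

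Of the 34 expressed loci whose longest transcript reached 15000 nt, a limit chosen after the values were seen, 4 were higher in the overexpression-labelled discs than in the control, and the median log2 fold was -1.31. These were Hsromega itself, bt, sls and RyR, the calcium release channel gene of the sarcoplasmic reticulum. The other listed muscle loci of that length were not higher: Msp300 had a log2 fold of -1.65 and Strn-Mlck, a myosin light chain kinase gene, of -0.030. With the limit at 10000 nt, 12 of 155 loci were higher in the overexpression-labelled discs, and at 5000 nt 124 of 1071. For RNAi the median of the same loci was -1.12, and Hsromega alone was higher, at a log2 fold of 0.014; 4 loci stood above bt and 10 above sls. The labels give no measure of RNA quality, and its part in the trend was not tested.

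**Figure D3:**
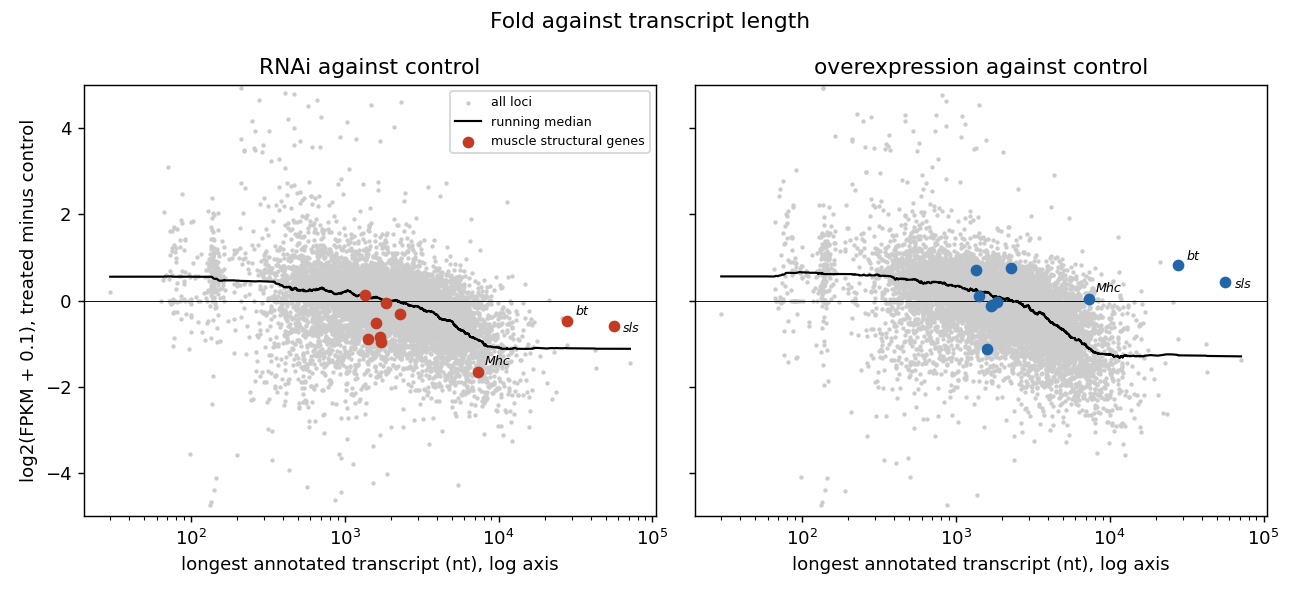
Log2(FPKM + 0.1), treated minus control, against the longest annotated transcript (nt, log axis) for 10113 loci (grey), with their running median (line) and the 10 muscle structural genes (coloured); 83 and 80 loci lie beyond the vertical limits of 5. In the overexpression panel bt and sls, at 27666 and 56489 nt, lie above 0 where the running median is below -1.

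Related genes that serve other muscles or cell types differed widely in level. Among the actins, the larval genes Act57B and Act87E were detected in every group, whereas Act79B, an actin of adult tubular muscles, stood at 0.126, 0.0552 and 0.0578 in the control, RNAi-labelled and overexpression-labelled discs. Among the troponin C genes, TpnC73F, TpnC25D and TpnC47D stood at 184, 119 and 38.5 in the control, while the adult muscle genes TpnC4 and TpnC41C stood at 0.0574 and 0.0782. The flight muscle gene fln was listed at 0.0319 in the control and at 0 in both other groups, and Zasp67 at 0.0127, 0.0283 and 0.0605. Act79B, fln, Zasp67, TpnC4 and TpnC41C were singled out for their low values, after these were seen, so they say nothing of adult muscle genes in general, and none of them was tested by the authors. Act88F, the flight muscle actin among the members, was above them at 1.59 in the control.

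The makeup of these families differed between groups, without a test. TpnC73F held 53.9% of the summed FPKM of the 5 troponin C genes in the control, 78.6% in the RNAi-labelled discs and 38.3% in the overexpression-labelled discs. TpnC25D held 34.8%, 17.3% and 47.3%, and TpnC47D 11.3%, 4.07% and 14.3%. The summed FPKM of the family was 342 in the control, 351 in the RNAi-labelled and 410 in the overexpression-labelled discs. Of the summed FPKM of 6 actin genes, the muscle actins held 23.3% in the control, 15.5% in the RNAi-labelled and 28.1% in the overexpression-labelled discs. Act57B made up between 90.0% and 94.4% of the muscle actin total.

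**Figure D4:**
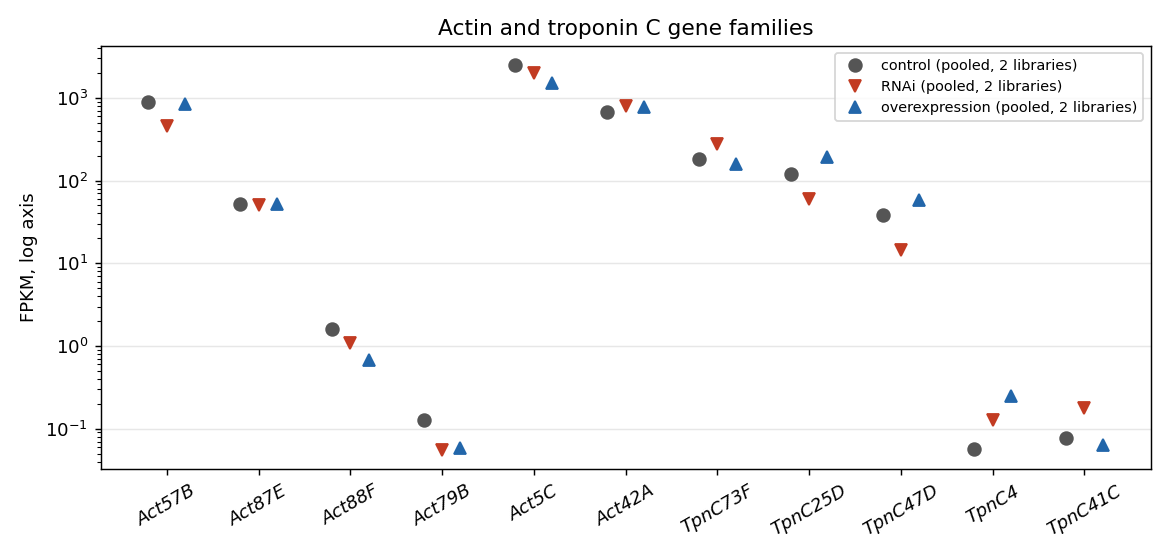
FPKM (log axis) of 6 actin and 5 troponin C genes, 1 pooled value of 2 libraries per group, with symbols for the control (circles), RNAi-labelled (downward triangles) and overexpression-labelled discs (upward triangles). The adult muscle genes Act79B, TpnC4 and TpnC41C lie between 0.0552 and 0.246, and Act88F between 0.682 and 1.59, below the larval and cytoplasmic genes.

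Other genes of the sarcomere gave a similar picture, with 1 of 22 tested loci called for RNAi and 0 of 22 for overexpression. Over all tested loci, the authors called 0.822% for RNAi and 1.2% for overexpression. The called gene was Unc-89, which encodes the obscurin kinase of the M-line. It fell from 7.71 in the control to 1.96 in the RNAi-labelled discs and stood at 6.96 in the overexpression-labelled discs. Its log2 fold for RNAi was -1.98 with an implied SE of 0.78 (q = 0.0129 in the authors' deposited table); with Benjamini-Hochberg recomputed, or with the length trend subtracted to a log2 fold of -0.81, it was not called. The share of 1 in 22 is to be read beside the 0.61% of all tested loci that the authors called lowered. The median log2 fold of the 22 expressed loci was -0.63 for RNAi, with 19 lower, and -0.10 for overexpression, with 13 lower. With the length trend subtracted the medians were -0.46 and 0.086, so the direction for overexpression turned.

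The most abundant of these genes were Mf, the thick filament protein myofilin, at 443, 256 and 423, and the calponin-like gene Mp20, at 353, 212 and 361, in the control, RNAi-labelled and overexpression-labelled discs. Both had their lowest value in the RNAi-labelled discs. Tm1, a tropomyosin gene with products in many cell types, was at 350, 307 and 386, and the Z-disc gene Zasp66 at 260, 257 and 229. The troponin C gene TpnC73F had the largest higher value for RNAi, 276 against 184 in the control (q = 0.724 in the authors' deposited table), and cpb, the beta subunit of actin capping protein, came next at 55.8 against 50.0. For overexpression the values highest relative to the control were those of TpnC25D, 194 against 119, and TpnC47D, 58.7 against 38.5, with q of 0.961 and 0.735 in the authors' deposited table. The locus of Msp300, a nesprin of muscle nuclei joined with 3 small RNA genes, was at 132, 44.3 and 41.9. The locus that joins CG43954 with Lasp, an actin-binding gene, was at 26.7, 13.2 and 11.1. These loci were low in both treated groups, unlike Mf and Mp20, but no test compared them. With the length trend subtracted, the log2 folds for RNAi and overexpression were -0.45 and -0.37 for the Msp300 locus. They were -0.56 and -0.70 for the Lasp locus, -0.65 and 0.075 for Mf, and -0.90 and -0.33 for Mp20. The contrast with Mp20 thus did not remain in direction. The implied SE of the Msp300 locus was very wide, at 11.0 for RNAi and 167.5 for overexpression. Its p in the authors' deposited Cuffdiff test was 0.046 and 0.057. Errors that wide would not give such p-values, so the implied SE is no measure of the spread at this locus.

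Genes for calcium handling and energy supply of muscle had no call among 7 tested, against 0.822% of all tested loci for RNAi and 1.2% for overexpression. With the length trend subtracted, 2 passed for overexpression as higher, the calcium channel gene Ca-alpha1D and slo, against 0.572% of tested loci. Their p in the authors' deposited table was 0.462 and 0.258, and the trend subtracted was -1.25 and -1.23. Ca-alpha1D was below FPKM of 1 in every group, at 0.665, 0.707 and 0.923 in the control, RNAi-labelled and overexpression-labelled discs. The trend was fitted on loci that reached FPKM of 1, so not on this gene. Its p rescaled from the deposited Cuffdiff p was 0.0035, close to the limit of 0.00395. The rescaling used its log2 fold with 0.1 added, 0.42, where the fold as deposited was 0.47. Its pass may therefore depend on that addition. Argk, the arginine kinase that buffers ATP, was at 757, 379 and 546 in the control, RNAi-labelled and overexpression-labelled discs. SERCA, the calcium pump of the sarcoplasmic reticulum, listed under its older symbol Ca-P60A, was at 195, 68.0 and 127, and RyR at 2.34, 0.957 and 2.73. The RNAi-labelled value was the lowest of the 3 for each of these genes, with q of 0.515, 0.277 and 0.186 in the authors' deposited table. The calsyntenin gene Cals, which is not particular to muscle, was at 75.5, 113 and 107. The glycerol phosphate dehydrogenase gene Gpdh1 was at 18.7, 16.3 and 20.4, and the potassium channel gene slo at 1.05, 1.36 and 1.65. The median log2 fold of the 6 expressed genes was -0.60 for RNAi and 0.17 for overexpression, and -0.11 and 0.85 with the length trend subtracted.

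Muscle specification and myoblast fusion genes had no call among 15 tested for RNAi and 14 for overexpression, against 0.822% and 1.2% of tested loci. These genes were low in level. Their median FPKM in the control was 5.40, against 169 for the 10 structural genes. Mef2, a transcription factor that activates muscle structural genes, was at 11.6, 5.34 and 6.36 in the control, RNAi-labelled and overexpression-labelled discs. The mesodermal factor zfh1 was at 5.40, 1.94 and 1.30 (q = 0.0657 for overexpression in the authors' deposited table), and the locus that joins CR42742 with twi, a mesoderm determinant, at 3.29, 2.07 and 0.959. The repressor gene Him was at 1.03, 0.961 and 1.36 and the FGF receptor gene htl at 3.72, 4.80 and 4.88. The highest were rst at 42.9, blow at 34.3, hbs at 23.2 and rols at 17.0 in the control. Of these, rst and hbs encode adhesion molecules that also act between cells of the retina. The 13 expressed loci had a median log2 fold of -0.85 for RNAi and -0.88 for overexpression. With the length trend subtracted these medians were -0.25 and 0.019, so the lower median did not remain for overexpression.

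The non-muscle contractile genes serve every cell. None of the 5 was called in either comparison, against 0.822% of all tested loci for RNAi and 1.2% for overexpression. The cytoplasmic actins Act5C and Act42A were at 2480, 2006 and 1529 and at 672, 792 and 764 in the control, RNAi-labelled and overexpression-labelled discs. The non-muscle myosin heavy chain zip, with a longest transcript of 6796 nt, was at 105, 55.0 and 40.4. With the length trend subtracted, zip had a log2 fold of -0.074 for RNAi and -0.37 for overexpression. Its regulatory and essential light chains, sqh and Mlc-c, were at 289, 385 and 349 and at 183, 234 and 229. All 5 were lower in the overexpression-labelled than in the RNAi-labelled discs, the reverse of 9 of the 10 muscle genes, without a test. The log2 differences were small for Mlc-c, Act42A and sqh, at -0.029, -0.051 and -0.14. Muscle lists did not all go one way. The overexpression-labelled value was the higher in 15 of 22 other sarcomere, 5 of 6 calcium and energy and 5 of 13 myogenic loci. It was the higher in 1 of 8 eye disc markers and in 54.1% of all loci. The median log2 difference between those groups was -0.14 for these 5 genes.

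**Figure D5:**
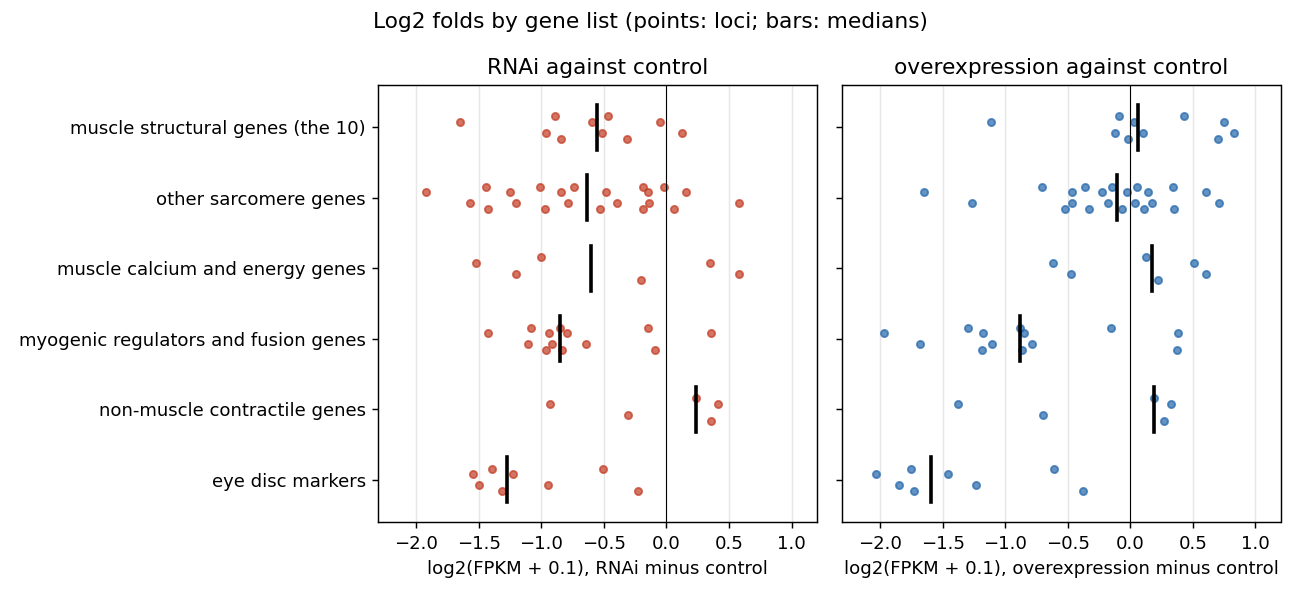
Log2(FPKM + 0.1), treated minus control, of expressed loci (points) in 6 gene lists with their medians (bars), for RNAi (left) and overexpression (right). The muscle structural genes and other sarcomere genes have medians of -0.55 and -0.63 for RNAi and of 0.066 and -0.10 for overexpression, while the eye disc markers have -1.27 and -1.59; with the length trend subtracted the overexpression medians of the other sarcomere and the myogenic genes turn to 0.086 and 0.019.

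Markers of other tissues moved between the same groups, and their part in the muscle values was not tested. The ratio of the summed FPKM of the 10 muscle genes to that of the 8 eye disc markers was 8.81 in the control, 11.0 in the RNAi-labelled and 25.4 in the overexpression-labelled discs. In the RNAi-labelled discs the muscle sum was itself lower, 1334 against 2176, while the eye marker sum was 121 against 247. The ratio was not adjusted for transcript length. All 8 eye markers were lower than in the control in both treated groups, and 1 of them, gl, was called, for overexpression, where 1.06% of tested loci were called lowered; it was not called with Benjamini-Hochberg recomputed or with the length trend subtracted. The median log2 folds of the eye markers, -1.27 for RNAi and -1.59 for overexpression, were -0.60 and -0.96 with that trend subtracted. The summed FPKM of 6 fat body markers was 39.2, 169 and 87.2, with 4 called as raised for RNAi, against 0.212% of tested loci, and 0 for overexpression, against 0.132%. With Benjamini-Hochberg recomputed, 1 of the 4, Fbp1, was called. With the length trend subtracted, 4 fat body markers were called for RNAi and 1 for overexpression. The summed FPKM of 6 salivary gland markers was 46.4, 3171 and 79.5, with 3 called as raised for RNAi, also with Benjamini-Hochberg recomputed. Most of the 3171 came from Sgs7, at 2405. The 6 trachea markers summed to 647, 444 and 342 and the 8 haemocyte markers to 25.7, 23.9 and 24.0. None of these was called, against 0.822% of all tested loci for RNAi and 1.2% for overexpression. No marker of these lists was at 0 in any group. The summed FPKM of the 10 structural genes was lowest in the RNAi-labelled discs, where those of the salivary gland and fat body markers were highest. The haemocyte sum was also lowest there, while the eye and trachea marker sums were lowest in the overexpression-labelled discs.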

How the data were processed

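Total RNA was depleted of ribosomal RNA and sequenced as pairs of reads, per the labels' protocols. Reads were handled with Bowtie, TopHat, Cufflinks and Cuffdiff 2.1.1 on dm6, per the submitters' processing notes, which give no other version; annotation and settings are not given in those sources. Per the file headers, the authors deposited for each comparison 1 pooled FPKM per group, the Cuffdiff test statistic (a score: log2 ratio divided by its error), and p-values and q-values. Both tables hold the same control FPKM at all 15904 loci. The set of tests over which the authors adjusted q is not known. The planned limma fit needed values per library and was not run.

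Calls are the deposited q of 0.05 or less; the overexpression table was turned to treated minus control. Single folds use FPKM as deposited; medians use log2(FPKM + 0.1) over loci that reach FPKM of 1 in any group. The implied SE is mostly larger than the error that the deposited p rests on, whose normal score was at the median 1.41 times the statistic in both comparisons. Transcript lengths and 1-based coordinates are from Ensembl release 115, on dm6 coordinates; 99.3% of loci had a length. The trend was the running median of 250 loci on each side in order of length, so at the lengths of bt and sls it is that of the longest loci as a group; p-values as deposited were rescaled to the adjusted fold. The trend was fitted on log2(FPKM + 0.1) of loci that reach FPKM of 1 in any group, and the rescaling used that scale too. The trend and the Benjamini-Hochberg code were tested on simulated data. The trend was scored there without the shortest and longest loci, so not at the lengths of bt and sls. The rescaling of p-values was not tested. Analyses ran in Python 3.11.15 with pandas 2.3.3, numpy 2.4.6, scipy 1.17.1 and matplotlib 3.10.9.

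The members and gene lists (100 symbols, all matched) were chosen with earlier results of these data known. Named genes are all members, all non-muscle contractile genes and, of each other muscle list, the 4 with the highest control FPKM, every called locus, and the 2 largest rises and falls per comparison; others are said to be chosen after their values were seen. No sequence of the members was used here.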

Additional observations from a re-analysis of the deposited data

How the results depend on the processing

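No member was called with q recomputed by Benjamini-Hochberg, with p from the test statistic or with the length trend subtracted; at an unadjusted p of 0.05 or less 1 member stood for RNAi and 0 for overexpression. For the other 3 muscle lists together, the 1 call for RNAi became 0 with recomputed q, 0 with p from the statistic and 0 with the length trend subtracted. At unadjusted p it became 7, among lists of 22, 7 and 15 tested loci. Over all tested loci, 4.5% passed at unadjusted p for RNAi. The attachment and glutamate receptor lists, added after the data were seen, gave 0. The 0 calls of the 3 muscle lists for overexpression became 1 at unadjusted p, against 6.16% of all tested loci. With the length trend subtracted they became 2, Ca-alpha1D and slo, both higher, against 0.572%. The medians of the 10 members kept their direction under each alternative run. That for RNAi ranged from -0.59 to -0.44, that for overexpression from 0.033 to 0.43, its highest without the 3 actin genes, and the difference between both treated groups from 0.83 to 1.02. Single members turned sign in 5 cases, none of them called: with the length trend subtracted wupA (-0.013), bt (0.64) and sls (0.52) for RNAi and Mlc1 (-0.10) for overexpression, and Mhc for overexpression (-0.0041) when centred on all loci. Comparisons added after the data were seen also turned with the length trend subtracted: the difference of Mhc from Mlc1 for RNAi (0.22), the medians of the other sarcomere genes (0.086) and myogenic genes (0.019) for overexpression, of the haemocyte markers for RNAi (0.61), and of the attachment genes (0.17 and 0.22). No paired analysis was possible because the tables hold 1 pooled value per group; for the same reason no library could be left out, and neither setting was run.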

Other observations

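Genes of muscle attachment and innervation, lists added after the data were seen, had median FPKM values of 30.6 and 2.63 in the control, against 169 for the structural genes. Of 10 attachment genes none was called in either comparison, against 0.822% of all tested loci for RNAi and 1.2% for overexpression. The integrin beta subunit gene mys was at FPKM 54.1, 38.5 and 35.3 in the control, RNAi-labelled and overexpression-labelled discs, its adaptor gene Ilk at 34.1, 41.1 and 52.6, and the tendon factor gene sr at 2.99, 1.63 and 1.04. The median log2 fold of the list was -0.30 for RNAi and -0.33 for overexpression, and both directions turned with the length trend subtracted, to 0.17 and 0.22. The glutamate receptor subunits of the larval neuromuscular junction were detected at low levels. None of their 4 loci was called, beside the same shares of all tested loci. GluRIIC was at 2.87, 1.46 and 3.11, GluRIIB at 0.256, 0.513 and 0.837, the locus that joins CG14017 with GluRIIA at 2.40, 2.57 and 3.38, and the locus that joins GluRIID with GluRIIE at 4.17, 5.50 and 7.99. All 4 loci had their highest value in the overexpression-labelled discs, but the implied SEs for overexpression were wide, from 0.88 to 1.60. GluRIIB was below FPKM of 1 in every group.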
